A study of Danio rerio with 18 samples.

Results

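The Hox genes of the zebrafish (Danio rerio) encode homeodomain transcription factors that lie in clusters on several chromosomes. Their members were taken as every row of the deposited count table whose name begins with hox, a cluster letter from a to d, a paralog group number and a copy letter a or b. This gave 48 genes among 28870 gene names. They were sorted by paralog group, the number in the name, which runs from 1 to 13. Groups 1 to 3 are called anterior here (10 genes), groups 4 to 8 central (15 genes) and groups 9 to 13 posterior (23 genes). By cluster, 6 genes belonged to cluster Aa, 5 to Ab, 11 to Ba, 4 to Bb, 11 to Ca, 4 to Cb and 7 to Da. A gene of cluster Aa in paralog group 4, hoxa4a, was not analysed here.

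Genes of low paralog number are known to be transcribed from the hindbrain backwards, and genes of high number only towards the tail, so that each body level holds its own combination. In vertebrates this combination sets the identity of hindbrain segments, spinal motor neurons and vertebrae, and genes of the highest numbers also act in the outer part of fins and limbs. Teleost fish kept extra copies of the clusters from a duplication of their whole genome, and the letters a and b at the end of a name mark such copies.

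RNA came from whole bodies of fish that carried stl297, an allele of scospondin that the series calls hypomorphic, meaning that it reduces the gene's function. Its product is the chief component of the Reissner fibre, which runs through the fluid inside the brain and spinal cord. There were 18 libraries in 6 groups of 3, namely maternal zygotic stl297 mutants (MZ, mutant offspring of mutant mothers) at 5, 15 and 30 days post fertilisation (dpf) and stl297 heterozygotes (het) at 5, 15 and 30 dpf. All fish, het included, thus carried the allele, and no library of fish without it entered. The labels give neither the number of fish in a library nor the crosses. Clutch, parents and genotype cannot be told apart, and p-values measure the spread between these libraries, which may be technical. In RNA of whole bodies, fewer cells of a type and less RNA per cell cannot be told apart.

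Total counts were 10178388 to 17141819 per library. Hox genes took 2575 to 6193 of these counts, or 0.0199% to 0.0387% of a library, and each of the 48 genes had at least 1 count in every library. Scospondin itself had 1 to 16 counts per library, so its level gave no check of the genotype labels. Marker lists of neurons, fins, kidney tubules and intestine were all detected, as the label whole body implies. Levels are given in CPM, which is the count relative to the size of its library, with scaling factors set over the 18 libraries, and changes are log2 fold changes from edgeR's quasi-likelihood test, fitted on the whole table with 3 libraries against 3. The threshold for a call was 0.05 on the adjusted p, taken over all genes tested.

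Per kilobase of the length that the deposited table gives, levels were spread over the paralog groups. The mean over the 18 libraries was highest for hoxb13a, at 9.65 CPM per kb, and lowest for hoxc1a, at 0.1998 CPM per kb. The rank of hoxc1a depends on its length, 8400 bases, the greatest given for a member. By CPM without length the lowest was hoxb1a, at 0.43, with hoxc1a at 1.68. Within the anterior groups, the leading genes were hoxb1b (1.48 CPM per kb), hoxb2a (2.44 CPM per kb) and hoxc3a (4.15 CPM per kb). Among the central groups they were hoxb4a (4.05 CPM per kb), hoxc5a (6.67 CPM per kb), hoxc6a (4.97 CPM per kb), hoxb7a (3.87 CPM per kb) and hoxb8a (7.82 CPM per kb). The posterior groups were led by hoxd9a (6.74 CPM per kb), hoxa10b (5.77 CPM per kb), hoxd11a (4.89 CPM per kb), hoxc12a (2.53 CPM per kb) and hoxb13a. Paralog group 1 was thus the group with the lowest leading gene and group 13 the one with the highest.

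At 5 dpf the Hox genes of MZ fish differed from those of het fish in opposite directions at the anterior and the posterior end of the paralog groups. The test called 18 of the 48 genes. In MZ fish 10 were higher and 8 lower, where 40.7% of all genes tested were called (21.1% higher and 19.6% lower). The share of Hox genes called, taken in either direction, was thus close to that of all genes. All 9 calls among anterior and central genes were higher, 5 of 10 and 4 of 15, whereas 8 of the 9 calls among the 23 posterior genes were lower. For central genes the share called higher was near the 21.1% of all genes, and 9 values were positive and 6 negative. The median log2 fold change was 0.27 for anterior, 0.19 for central and -0.32 for posterior genes, beside -0.0028 for all genes tested. Over the 48 genes together it was -0.06. No test was made of a class as a whole.

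**Figure D1:**
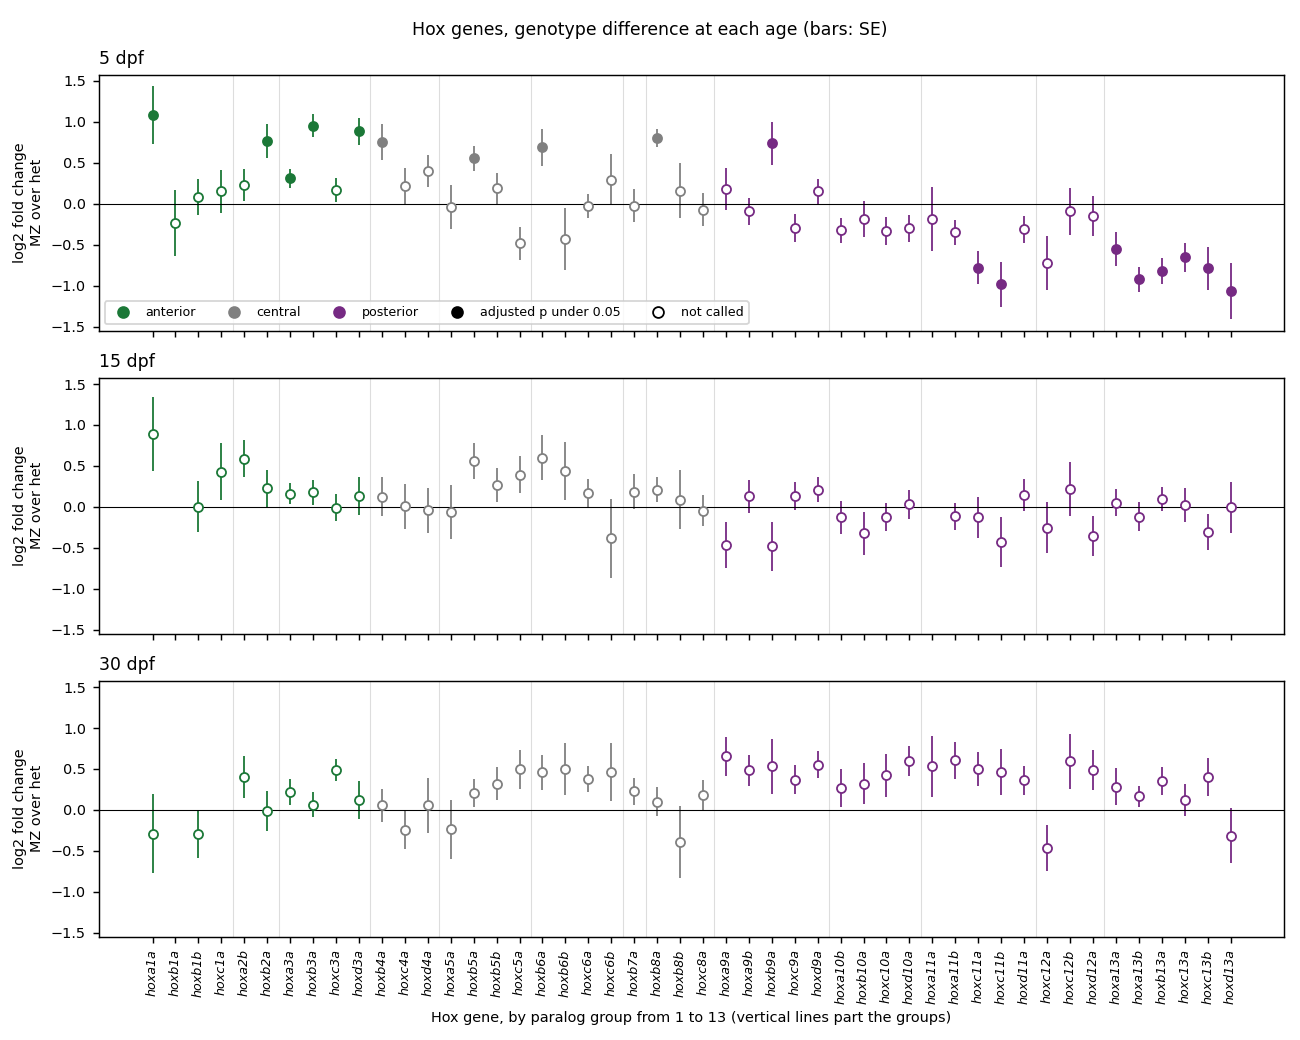
Log2 fold change of MZ over het fish for each Hox gene tested at 5, 15 and 30 dpf, ordered by paralog group, with the standard error as a bar (3 libraries per group). Filled points passed an adjusted p under 0.05; at 5 dpf the 9 filled anterior and central points lie above 0 and 8 of the 9 filled posterior points lie below it, and at 15 and 30 dpf no point is filled.

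The summed counts of a class showed this without any scaling between libraries. Within a library, the counts of anterior genes divided by those of posterior genes came to 0.944, 0.900 and 0.888 in the 3 MZ libraries at 5 dpf, against 0.490, 0.421 and 0.588 in the 3 het libraries. The lowest MZ library lay above the highest het library. The ratio averaged 0.911 ± 0.0296 in MZ and 0.500 ± 0.0837 in het fish (SD, n = 3 each). Both sides of the ratio moved. Anterior genes summed to 100.5 ± 5.21 CPM in MZ and 75.3 ± 6.61 CPM in het fish, and posterior genes to 110.3 ± 4.86 CPM in MZ and 152 ± 13.3 CPM in het fish. For central genes the sums were 110.7 ± 9.05 CPM in MZ and 93.8 ± 9.05 CPM in het fish (SD, n = 3 each), and here the libraries overlapped. At 15 dpf the ratio of anterior to posterior counts averaged 0.457 ± 0.0363 in MZ and 0.398 ± 0.0608 in het fish. At 30 dpf it averaged 0.363 ± 0.0311 in MZ and 0.396 ± 0.0218 in het fish, and the libraries of both genotypes overlapped at each of these later ages. The ratio in MZ fish at 5 dpf was above that of every other library.

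**Figure D2:**
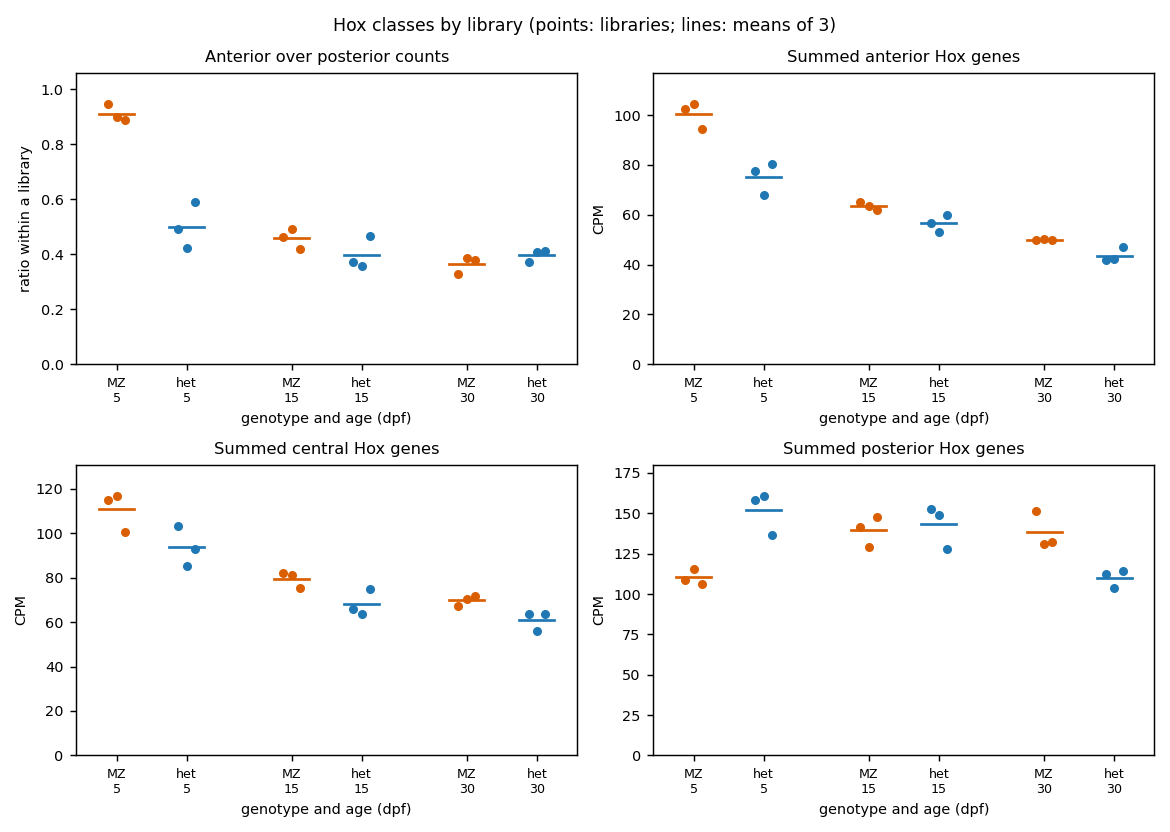
Counts of anterior over posterior Hox genes within each library, and summed CPM of the anterior, central and posterior classes, for MZ and het fish at 5, 15 and 30 dpf; points are libraries and lines are means of 3. At 5 dpf the ratio in MZ libraries (0.888 to 0.944) stands above all other libraries.

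Among the anterior genes, paralog group 3 held 3 of the 5 calls. The genes of group 3 are known for roles in the caudal hindbrain and the pharynx. hoxb3a had 23.8, 23.3 and 20.5 CPM in MZ libraries at 5 dpf, against 10.6, 11.3 and 14.7 CPM in het libraries. Every MZ library was above every het library (log2 fold change 0.95, SE 0.14, edgeR adjusted p = 0.000125). hoxd3a had 12.5, 12.5 and 13.04 CPM in MZ libraries, against 6.63, 5.88 and 8.97 CPM in het libraries. These groups did not overlap either (log2 fold change 0.89, SE 0.17, edgeR adjusted p = 0.000738). hoxa3a rose as well, to 26.5, 28.5 and 24.5 CPM in MZ libraries against 22.3, 20.6 and 24.4 CPM in het libraries (log2 fold change 0.31, SE 0.12, edgeR adjusted p = 0.0419). Its call was kept in 1 of the 6 fits that left out a library and in 3 of the 6 other fits, and was lost with DESeq2, with the replicate block and in one fit over all libraries. The fourth gene of the group, hoxc3a, was not called (log2 fold change 0.17, SE 0.15, adjusted p = 0.389).

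In paralog group 2, known for the identity of the second pharyngeal arch and of hindbrain segments, hoxb2a rose. It had 7.90, 6.88 and 5.96 CPM in MZ libraries and 3.77, 3.53 and 5.41 CPM in het libraries, with no overlap (log2 fold change 0.77, SE 0.21, edgeR adjusted p = 0.00847). hoxa2b was at 0.23 and was not called (adjusted p = 0.362). In paralog group 1, whose genes act in the early hindbrain, hoxa1a had 31, 14 and 21 counts in MZ libraries and 12, 5 and 12 counts in het libraries. This is 1.63, 1.15 and 1.39 CPM against 0.78, 0.49 and 0.763 CPM, without overlap. Its value was the highest of the 48 genes (log2 fold change 1.08, SE 0.36, edgeR adjusted p = 0.0242), at a low level. The call was lost when each of 4 of the 6 libraries was left out, with DESeq2 and in one fit over all libraries. hoxb1a, hoxb1b and hoxc1a of the same group had log2 fold changes of -0.23, 0.08 and 0.15 and were not called.

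The 4 central genes called were hoxb4a, hoxb5a, hoxb6a and hoxb8a, which all lie in cluster Ba. Central genes are known for roles in the caudal hindbrain, the spinal cord and the trunk. hoxb8a had 25.5, 27.0 and 25.3 CPM in MZ libraries, against 16.8, 15.4 and 14.6 CPM in het libraries. The groups lay well apart, and hoxb8a had the smallest adjusted p of all Hox genes at this age (log2 fold change 0.81, SE 0.11, edgeR adjusted p = 7.87e-05). hoxb5a had 15.0, 11.5 and 13.04 CPM in MZ libraries and 9.88, 7.94 and 10.4 CPM in het libraries, again with no overlap (log2 fold change 0.55, SE 0.15, edgeR adjusted p = 0.00975). hoxb4a (log2 fold change 0.76, SE 0.22, adjusted p = 0.0135) and hoxb6a (0.69, SE 0.23, adjusted p = 0.0248) were also higher in every MZ library than in any het library. The central gene with the lowest value was hoxc5a. It had 6.69, 5.73 and 4.04 CPM in MZ libraries and 9.69, 7.74 and 6.93 CPM in het libraries, which do not overlap, but its log2 fold change of -0.48 (SE 0.20) was not called (edgeR adjusted p = 0.0694).

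At the posterior end, all 6 genes of paralog group 13 were lower in MZ fish at 5 dpf. Group 13 acts at the end of the body axis, in the tail bud, and in the outer fin skeleton, where zebrafish hoxa13a and hoxa13b are needed for fin rays. Together these 6 genes summed to 26.2, 30.0 and 29.5 CPM in MZ libraries, against 50.5, 57.6 and 45.9 CPM in het libraries. The median log2 fold change of the group was -0.80. hoxa13b had 6.59, 7.95 and 6.49 CPM in MZ libraries and 13.9, 15.2 and 12.8 CPM in het libraries (log2 fold change -0.92, SE 0.15, edgeR adjusted p = 0.000256). For hoxb13a the values were 6.43, 5.82 and 7.08 CPM in MZ libraries and 11.6, 13.6 and 11.002 CPM in het libraries (log2 fold change -0.82, SE 0.16, edgeR adjusted p = 0.000779). In both genes the highest MZ library was below the lowest het library. hoxc13a (log2 fold change -0.65, SE 0.18, adjusted p = 0.0086), hoxc13b (-0.79, SE 0.26, adjusted p = 0.0264) and hoxd13a (-1.06, SE 0.34, adjusted p = 0.0213) did not overlap between the genotypes either. In hoxa13a the libraries did overlap, with 4.58, 6.72 and 7.61 CPM in MZ and 10.2, 11.5 and 7.50 CPM in het libraries (log2 fold change -0.55, SE 0.21, adjusted p = 0.046). Leaving out a library in turn kept 4 or 5 of the 6 calls, and the hoxa13a call was lost with DESeq2.

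**Figure D3:**
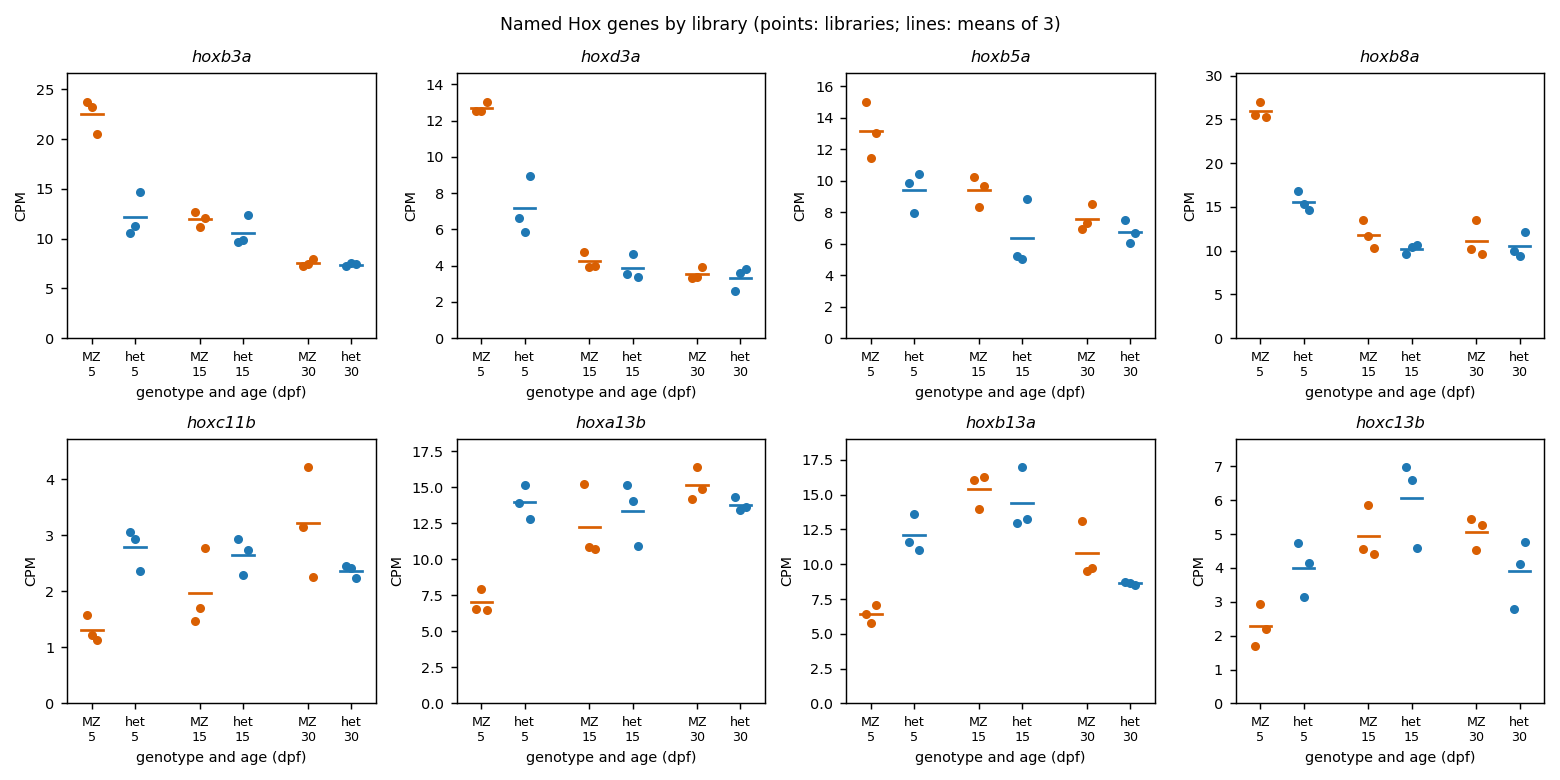
CPM of 8 Hox genes in each library of MZ and het fish at 5, 15 and 30 dpf; points are libraries and lines are means of 3. hoxb3a, hoxd3a, hoxb5a and hoxb8a are higher, and hoxc11b, hoxa13b, hoxb13a and hoxc13b lower, in every MZ library than in any het library at 5 dpf.

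The other posterior calls were in paralog groups 9 and 11. Group 11, known in mice for sacral vertebrae, kidney and the middle part of the limb, had 2 of 5 genes lower, from clusters Ca and Cb. hoxc11a had 3.79, 4.01 and 2.98 CPM in MZ libraries and 7.41, 6.66 and 5.47 CPM in het libraries (log2 fold change -0.78, SE 0.20, edgeR adjusted p = 0.00674). hoxc11b had 1.58, 1.23 and 1.13 CPM in MZ libraries and 3.05, 2.94 and 2.35 CPM in het libraries (log2 fold change -0.98, SE 0.28, edgeR adjusted p = 0.0108). Neither gene overlapped between the genotypes. The posterior gene that rose was hoxb9a, with 4.27, 6.06 and 2.98 CPM in MZ libraries and 2.73, 2.84 and 2.73 CPM in het libraries (log2 fold change 0.74, SE 0.26, adjusted p = 0.0344). Its call was kept in 1 of the 6 fits that left out a library and was lost in one fit over all libraries; without MZ replicate 2 the value was 0.47. Neither the 4 genes of group 10 nor the 3 genes of group 12 held a call, although all 7 had negative values, from -0.72 for hoxc12a to -0.09 for hoxc12b.

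Counted by separation alone, 10 Hox genes had every MZ library above every het library at 5 dpf, beside 21.8% of all genes tested, and 14 had every MZ library below, beside 30.4%. Of the 14, 13 were posterior and the other was hoxc5a. Over the 48 genes, the log2 fold change had a Spearman correlation of -0.74 with the paralog number. It was -0.02 with the mean level and 0.22 with the gene length. Over the 13 paralog group medians the first value was -0.75. The genes share the same 6 libraries and in part overlap each other, so these values describe the pattern only. Leaving out het replicate 1 moved the number called at 5 dpf to 11, 5 higher and 6 lower. That fit called 6005 of all genes, beside 8043 in the main fit. Besides the genes named above, hoxb6a, hoxc13b and hoxa13a kept their call in 2 and hoxb4a and hoxd13a in 4 of the 6 fits that left out a library.

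By cluster, Ba stood out in number of calls. Its 11 genes held 7 of the 10 that rose, namely hoxb2a, hoxb3a, hoxb4a, hoxb5a, hoxb6a, hoxb8a and hoxb9a. They also held 1 of the 8 that fell, hoxb13a at the posterior end of the cluster. Over all genes tested, 21.1% were called higher and 19.6% lower. Of the 7, hoxb3a has a gene model that overlaps those of hoxb4a, hoxb5a and hoxb6a, as described below, so these genes may share reads. hoxb9a kept its call in 1 of the 6 fits that left out a library. hoxb7a, between hoxb6a and hoxb8a, was at -0.02 and was not called. The Ba genes summed to 104.8, 108.3 and 94.6 CPM in MZ libraries at 5 dpf, against 75.5, 74.5 and 77.9 CPM in het libraries. In cluster Ca, also with 11 genes, none rose and 2 fell, and its median log2 fold change was -0.30, beside 0.69 in Ba. The difference between clusters was not tested. Of 11 pairs of a and b copies, 7 had the same sign at 5 dpf. Both copies were called, and both lower, in the pairs hoxc11, hoxa13 and hoxc13. In hoxb5, hoxb6 and hoxb8, the a copy was called and the b copy was not. The log2 fold changes were 0.55 and 0.19 for hoxb5a and hoxb5b, 0.69 and -0.43 for hoxb6a and hoxb6b, and 0.81 and 0.16 for hoxb8a and hoxb8b. At 5 dpf hoxb6b had only 9 to 45 and hoxb8b 16 to 45 counts per library, against 157 to 484 for hoxb8a. The gene models of hoxb5b and hoxb6b overlap that of hoxb1b. The difference between copies was not tested.

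Some Hox genes overlap their neighbours, which matters for counting. In the RefSeq annotation of the assembly GRCz12tu, which is not the authors' build and served here only for gene order, all 48 names were found, on 7 chromosomes, and the order within each of the 7 clusters followed the paralog number. There, 17 of the 48 gene models overlapped another member. The long hoxb3a model overlaps hoxb4a, hoxb5a and hoxb6a, which rose with it, and the hoxc3a model overlaps 5 further genes of cluster Ca. How the authors' counting treated reads in such stretches is not stated, so values of these 17 genes are uncertain. Among the 31 free genes, in a count added after seeing the data, 4 were called higher and 8 lower at 5 dpf. Over all genes tested, 21.1% were called higher and 19.6% lower, so the share of free genes called higher was below that of all genes. The 4 called higher were hoxa1a, hoxb2a, hoxb8a and hoxb9a. Of these, hoxa1a and hoxb9a kept their call in 2 and 1 of the 6 fits that left out a library. The medians rest on few genes, with 0.23 for 5 anterior, 0.23 for 4 central and -0.33 for 22 posterior genes. Within the 31 free genes, counts of anterior and central genes over posterior genes were 0.525, 0.497 and 0.508 in MZ libraries and 0.284, 0.246 and 0.282 in het libraries at 5 dpf. Anterior genes alone over posterior genes gave 0.169, 0.153 and 0.169 in MZ libraries and 0.0919, 0.0716 and 0.110 in het libraries.

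At 15 dpf no Hox gene passed the test between the genotypes. None of the 46 genes tested was called, where 0.886% of all genes were called. By edgeR 3 had an unadjusted p under 0.05, and DESeq2 called 0, with 2 at an unadjusted p under 0.05. How many of all genes reached that unadjusted p was not counted, so the 3 and 2 have no background beside them. Those 3, chosen after their values were seen, were hoxa2b, hoxb5a and hoxb6a, with log2 fold changes of 0.58, 0.56 and 0.60 and edgeR adjusted p of 0.194, 0.202 and 0.264. The medians were 0.18 for anterior, 0.17 for central and -0.12 for posterior genes, beside -0.0051 for all genes. The 6 genes of group 13 summed to 58.0, 51.3 and 57.3 CPM in MZ libraries and 60.8, 59.3 and 48.5 CPM in het libraries, which overlapped. hoxb1a and hoxa11a were too low to be tested at this age.

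At 30 dpf no Hox gene was called either, of 46 tested, where 3.29% of all genes were called. There were 8 genes at an unadjusted p under 0.05 by edgeR, all with positive values, and DESeq2 called 0, with 4 at an unadjusted p under 0.05. The share of all genes at that unadjusted p was not counted, so the 8 and 4 have no background beside them. Most values were positive. The log2 fold change was positive in 38 genes and negative in 8, with a median of 0.33, beside 0.0045 for all genes. Here the medians ran from 0.09 for anterior and 0.21 for central to 0.42 for posterior genes. Posterior genes summed to 138.3 ± 11.7 CPM in MZ and 110.2 ± 5.71 CPM in het fish (SD, n = 3 each). Central genes summed to 69.8 ± 2.27 CPM in MZ and 61.1 ± 4.31 CPM in het fish. For anterior genes the sums were 49.95 ± 0.285 CPM in MZ and 43.6 ± 2.88 CPM in het fish. In each class every MZ library was above every het library. hoxd10a had 7.01, 6.93 and 7.12 CPM in MZ libraries and 5.53, 4.12 and 4.59 CPM in het libraries (log2 fold change 0.59, SE 0.18, edgeR adjusted p = 0.104). In total 12 genes had all MZ libraries above all het libraries, beside 12.3% of all genes tested, and 2 had them below, beside 15.5%. hoxb1a and hoxc1a were not tested. hoxb1a had 4, 1 and 1 counts in MZ and 1, 6 and 2 counts in het libraries, so a difference was not detectable at this depth. One fit over all libraries called 3 of 48 Hox genes at 30 dpf, all posterior and higher. That fit called 1770 of all genes, 620 of them higher, beside 657 of all genes in the main fit.

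The genotype difference itself changed with age in 13 of the 48 genes by the interaction test over the 18 libraries, where 33.3% of all genes were called. The share of Hox genes called was thus below that of all genes. The 13 were 1 anterior gene, hoxb3a, 2 central genes, hoxc5a and hoxb8a, and 10 posterior genes from groups 9 to 13. The smallest adjusted p were those of hoxb13a (edgeR interaction adjusted p = 0.000603) and hoxa13b (0.00124). The log2 fold change of hoxb13a was -0.82 at 5 dpf, 0.10 at 15 dpf and 0.35 at 30 dpf, and that of hoxa13b was -0.92, -0.12 and 0.17 at the same ages. hoxb3a went the other way, with 0.95, 0.18 and 0.06 (edgeR interaction adjusted p = 0.00429). For hoxc11a the values were -0.78, -0.13 and 0.50 (edgeR interaction adjusted p = 0.00662). hoxa11b and hoxd10a, which were not called at any single age, were at -0.35, -0.11 and 0.61 and at -0.30, 0.03 and 0.59 (edgeR interaction adjusted p = 0.0112 and 0.00831). The 13 calls dropped to 8 without MZ replicate 2 at 5 dpf and to 8 without MZ replicate 1 at 30 dpf. Over all genes those fits called 6371 and 6470, beside 7050 in the main fit.

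Change with age between 5 and 15 dpf was examined in each genotype. These comparisons reuse the 5 dpf libraries of the genotype comparison, so they restate part of it. In MZ fish, 19 of 47 Hox genes were called, 7 higher and 12 lower at 15 dpf, where 57.0% of all genes were called (27.7% higher and 29.3% lower). The 7 that rose were hoxc12a and all 6 genes of group 13, and the 12 that fell were 5 anterior genes, 6 central genes and hoxb9a. In het fish, 11 of 47 were called, 2 higher and 9 lower, where 39.7% of all genes were called (19.7% higher and 20.0% lower). Here hoxc13b was the only gene of group 13 called, higher at 15 dpf.

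hoxb13a in MZ fish gave 16.0, 13.9 and 16.2 CPM at 15 dpf, against 6.43, 5.82 and 7.08 CPM at 5 dpf (log2 fold change 1.23, SE 0.15, edgeR adjusted p = 1.81e-05). In het fish it gave 12.99, 17.0 and 13.2 CPM at 15 dpf, against 11.6, 13.6 and 11.002 CPM at 5 dpf (log2 fold change 0.27, adjusted p = 0.159). The 15 dpf libraries of both genotypes thus overlapped. Besides hoxb13a, the genes that rose most in MZ fish were hoxc12a (1.19, adjusted p = 0.0108), hoxc13b (1.11, adjusted p = 0.00282), hoxd13a (0.97, adjusted p = 0.0395) and hoxa13a (0.96, adjusted p = 0.00134). hoxd3a fell most. It had 4.78, 3.94 and 3.98 CPM in MZ libraries at 15 dpf, against 12.5, 12.5 and 13.04 CPM at 5 dpf (log2 fold change -1.60, SE 0.17, edgeR adjusted p = 4.18e-06). The next to fall in MZ fish were hoxb9a (-1.24, edgeR adjusted p = 0.00478), hoxc6b (-1.16, adjusted p = 0.0258), hoxb8a (-1.15, adjusted p = 1.24e-05) and hoxb3a (-0.93, adjusted p = 5.76e-05). Of the 10 genes named for this step in MZ fish, 7 kept the call in all 6 fits that left out a library. hoxc12a kept it in 5 and hoxd13a and hoxc6b in 3, and hoxd13a also lost it with DESeq2.

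In het fish hoxd3a also fell between 5 and 15 dpf (log2 fold change -0.89, SE 0.22, edgeR adjusted p = 0.00433), as did hoxb1b (-0.85, adjusted p = 0.015), hoxc1a (-0.80, adjusted p = 0.0451), hoxb5b (-0.73, adjusted p = 0.0157) and hoxa10b (-0.63, adjusted p = 0.00989). hoxb8a (-0.60, edgeR adjusted p = 0.00183), hoxc11a (-0.56, adjusted p = 0.0419) and hoxa3a (-0.52, adjusted p = 0.00285) fell as well. Of these genes, hoxd3a, hoxb8a and hoxa3a kept the call in all 6 fits that left out a library. hoxa10b kept it in 5, hoxb1b and hoxb5b in 4 and hoxc1a and hoxc11a in 2. hoxc1a and hoxc11a also lost it with DESeq2 and with RLE scaling factors. hoxc1a lost it with the replicate block and in one fit over all libraries too. hoxa9a rose by 0.73 (adjusted p = 0.0424) and hoxc13b by 0.59 (adjusted p = 0.047). DESeq2 called 0 higher and 7 lower, where it called 3649 of all genes higher and 3169 lower. Of the 6 fits that left out a library, 4 called 0 higher, beside 3381 to 3677 of all genes. hoxa9a kept its call in 2 and hoxc13b in 1 of those 6. hoxc13b also lost it with the replicate block and in one fit over all libraries. The het count depended on single libraries. It was 4 without het replicate 1 at 5 dpf, 7 without het replicate 1 at 15 dpf and 5 without het replicate 2 at 15 dpf. Over all genes those fits called 6284, 6687 and 6698, beside 7793 in the main fit. The class medians in het fish were -0.48 for anterior, -0.46 for central and -0.06 for posterior genes, beside -0.03 for all genes. In MZ fish they were -0.56, -0.51 and 0.17, beside -0.07 for all genes. In both genotypes the anterior and central medians were thus below the posterior one.

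**Figure D4:**
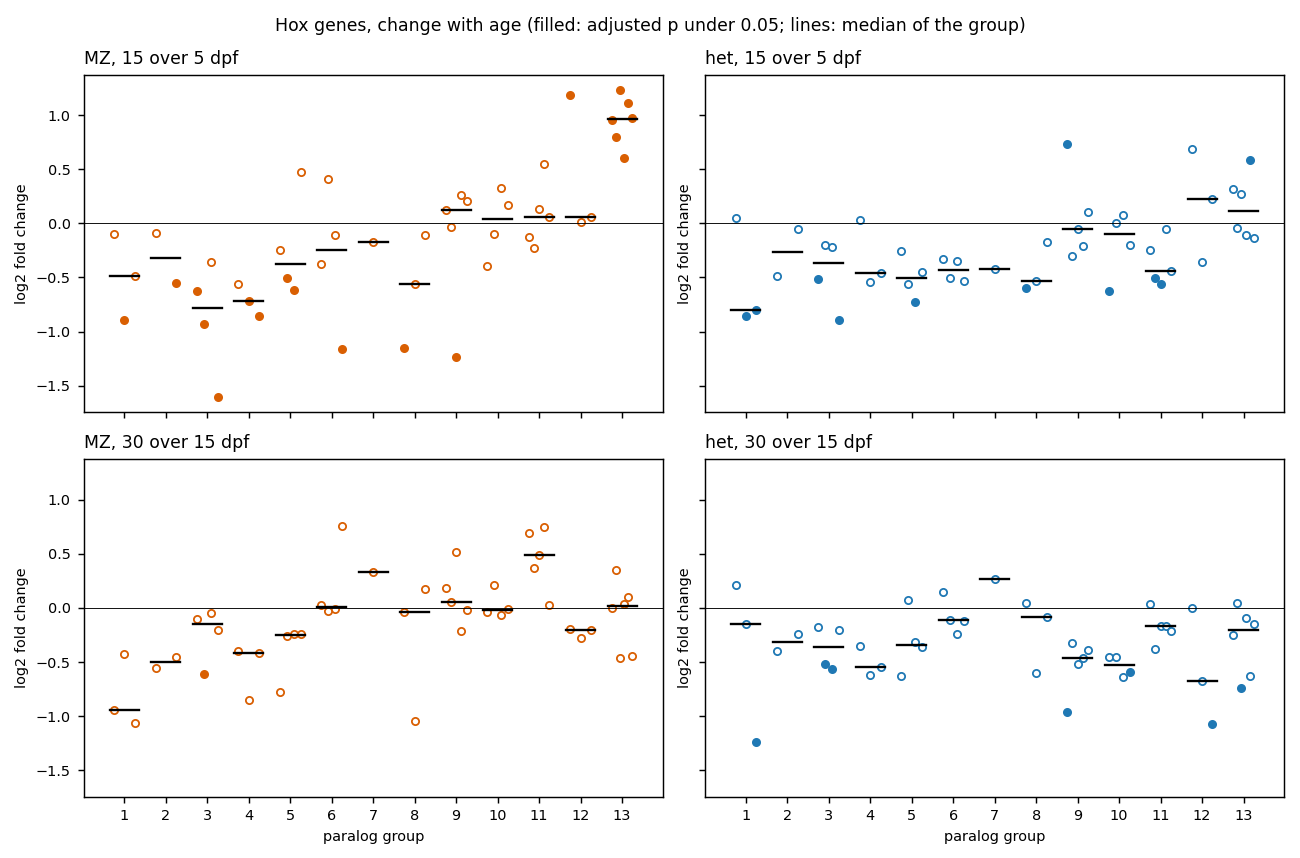
Log2 fold change of each Hox gene with age, 15 over 5 dpf and 30 over 15 dpf, by paralog group, in MZ fish (left) and het fish (right); filled points passed an adjusted p under 0.05 and lines are group medians. Between 5 and 15 dpf all 6 genes of group 13 are filled and above 0 in MZ fish, and 1 of the 6 is in het fish.

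Between 15 and 30 dpf 7 Hox genes fell in het fish and 1 in MZ fish. In MZ fish 1 of 47 Hox genes was called, where 19.3% of all genes were called. It was hoxb3a, with 7.24, 7.46 and 7.98 CPM at 30 dpf, against 12.7, 11.2 and 12.1 CPM at 15 dpf (log2 fold change -0.61, SE 0.16, edgeR adjusted p = 0.0227), and this call was kept in 1 of the 6 fits that left out a library. No Hox gene was called without MZ replicate 1 or 2 at 15 dpf or replicate 2 at 30 dpf, and without MZ replicate 3 at 30 dpf 2 were called. Over all genes those fits called 2434 to 3372, beside 3770 in the main fit. Without MZ replicate 3 at 15 dpf the 1 gene called was central, and without MZ replicate 1 at 30 dpf it was posterior. In het fish 7 of 47 were called, all lower, where 21.5% of all genes were called (10.9% lower). They were hoxc1a (-1.24, adjusted p = 0.027), hoxd12a (-1.07, adjusted p = 0.00682), hoxa9a (-0.96, adjusted p = 0.0218), hoxb13a (-0.74, adjusted p = 0.00409), hoxd10a (-0.59, adjusted p = 0.0454), hoxc3a (-0.56, adjusted p = 0.0208) and hoxb3a (-0.52, adjusted p = 0.03). Without any 1 of the 3 het libraries at 15 dpf 4 Hox genes were called, and without het replicate 2 or 3 at 30 dpf 2 and 4. Over all genes those fits called 2772 to 3729, beside 4277 in the main fit. Of the 7 genes, hoxd12a and hoxb13a kept the call in all 6 fits that left out a library. hoxc3a kept it in 3, hoxa9a, hoxd10a and hoxb3a in 2 and hoxc1a in 1. hoxc1a and hoxd10a also lost it with DESeq2, and hoxd10a with upper-quartile scaling factors. The median over all Hox genes tested was -0.04 in MZ and -0.33 in het fish. Whether the genotypes differed in this step alone was not tested.

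Counts of partners and regulators of Hox genes at 5 dpf stand beside 40.7% of all genes tested that were called, 21.1% higher and 19.6% lower. Proteins of the TALE class, such as Pbx and Meis, bind DNA together with Hox proteins. Of 14 TALE genes tested at 5 dpf, 6 were higher and 1 was lower in MZ fish, with a median log2 fold change of 0.33, beside -0.0028 for all genes. They included pbx3a (1.09, adjusted p = 0.0309), pbx1b (0.97, adjusted p = 0.00129), meis2b (0.76, adjusted p = 0.000264) and meis3 (0.60, adjusted p = 0.00142), and the one that fell was pbx2 (-0.46, adjusted p = 0.00303), named after its value was seen. Summed over the 14 TALE genes, the libraries overlapped at 5 dpf, with 651.9 to 698.4 CPM in MZ and 622.3 to 716 CPM in het libraries. At 15 and 30 dpf no TALE gene was called, where 0.886% and 3.29% of all genes were called.

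Of 14 known regulators of Hox genes tested at 5 dpf, 4 were higher and 2 lower, with a median of 0.08, a share close to the 40.7% of all genes. egr2a was at 1.56 (edgeR adjusted p = 0.00112), at a low mean level of 2.44 CPM in MZ and 0.863 CPM in het fish. The other egr2 gene of the list, egr2b, had a mean of 6.63 CPM in MZ and 6.58 CPM in het fish. mafba, also in the list, had 26.7 CPM in MZ and 27.9 CPM in het fish. cdx1b, a caudal-type factor that is also an intestinal gene, was at 1.38 (edgeR adjusted p = 0.00011). hnf1ba, which acts in the hindbrain and in the kidney, was at 0.92 (adjusted p = 0.00106). aldh1a2, which makes retinoic acid, was lower, at -0.49 (adjusted p = 0.00285). Neither of the 2 evx genes tested, which lie next to Hox clusters, was called at 5 dpf. None of the regulators was called at 15 or 30 dpf, where 0.886% and 3.29% of all genes were called.

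Counts of markers of other cell types at 5 dpf are to be read beside the 40.7% of all genes that were called (21.1% higher and 19.6% lower). Of 14 pan-neuronal genes tested, 13 were higher and none lower in MZ fish, with a median of 1.01. The 15 genes of the list, of which gap43 was at 0 in every library, summed to 2238 to 2790 CPM in MZ and 1205 to 1734 CPM in het libraries. Among them were syt1a (1.28), atp1a3a (1.18) and elavl4 (1.16). All 7 motor neuron genes tested were higher, with a median of 0.73 and sums of 127.2 to 142.6 CPM in MZ and 77.5 to 91.0 CPM in het libraries, among them slc18a3a (1.38), mnx1 (1.096), chata (1.03) and isl1 (0.73). Factors of the forebrain and midbrain, where Hox genes are known to be silent, had 3 of 14 higher and 2 lower, a share near that of all genes, with a median of 0.28 and sums of 180.4 to 210.4 CPM in MZ and 157.4 to 204.2 CPM in het libraries. dmbx1a, six3b, six3a and emx3 were at 1.05, 0.84, 0.57 and -0.57.

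Of 10 genes of fin mesenchyme, 5 were lower in MZ fish at 5 dpf, beside 19.6% of all genes, and 1 was higher. Their sums were 991.6 to 1061 CPM in MZ and 2693 to 2950 CPM in het libraries, with a median of -0.55. and1 and and2, which encode fibres of the fin fold, were at -1.52 (adjusted p = 1.56e-07) and -1.42 (adjusted p = 1.98e-07), tbx5a of the pectoral fin was at -1.15 (adjusted p = 0.0071) and fgf10a at -0.50 (adjusted p = 0.018). All 7 kidney tubule genes tested were higher, with a median of 1.56 and sums of 203.6 to 212.9 CPM in MZ and 116.9 to 159 CPM in het libraries, led by slc12a3 (2.87) and clcnk (1.75). Of 7 intestinal genes 3 were higher, beside 21.1% of all genes, with a median of 0.45. The part of these tissues in the Hox differences was not tested.

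**Figure D5:**
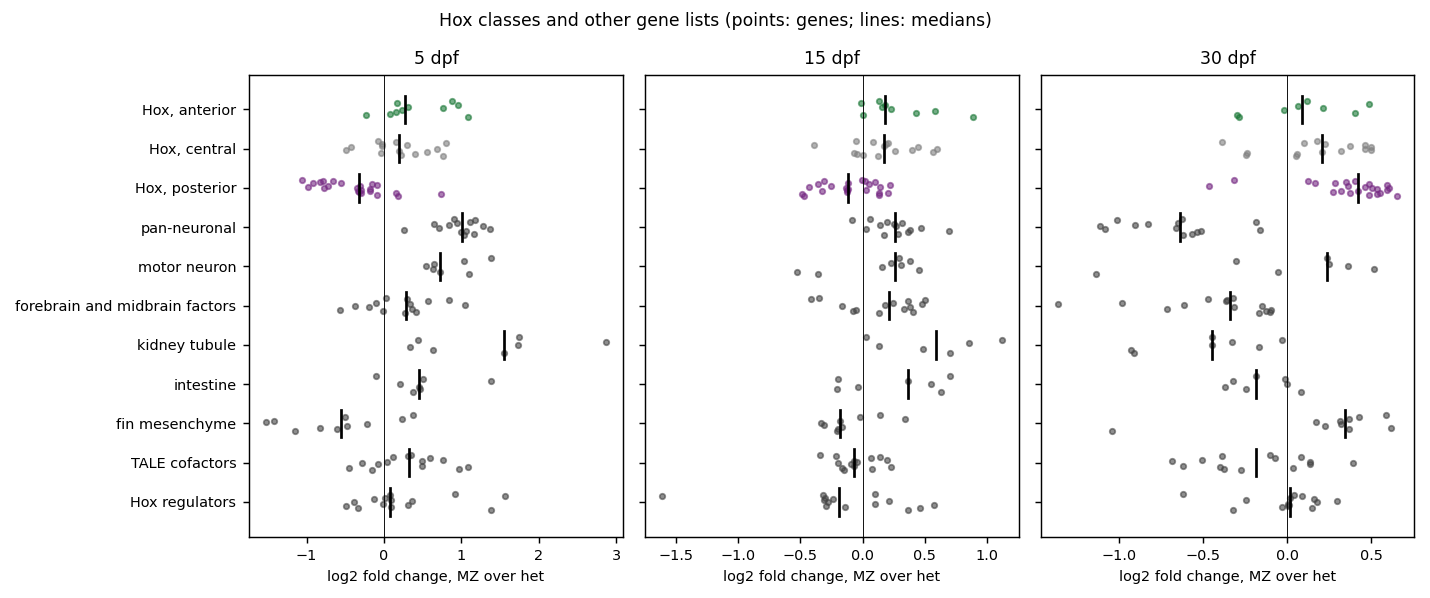
Log2 fold change of MZ over het fish at 5, 15 and 30 dpf for each tested gene of the Hox classes and of the other gene lists; points are genes and vertical lines are medians. At 5 dpf the posterior Hox median (-0.32) and the fin mesenchyme median (-0.55) are below 0 and the pan-neuronal median (1.01) is above it; at 30 dpf the pan-neuronal median is -0.64.

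At the later ages the lists took other values. At 15 dpf 1 pan-neuronal gene was higher and no other gene of the cell type lists was called, beside 0.886% of all genes. At 30 dpf 10 of 14 pan-neuronal genes were lower in MZ fish, where 3.29% of all genes were called in either direction, with a median of -0.64 and sums of 1082 to 1257 CPM in MZ and 1506 to 1982 CPM in het libraries, while the fin mesenchyme genes had a median of 0.34 and none called. The medians of the other lists at 30 dpf were 0.24 for motor neurons, -0.34 for the forebrain and midbrain, -0.44 for kidney tubules, -0.19 for the intestine and -0.19 for TALE genes.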

How the data were processed

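The deposited file holds raw read counts by gene, in whole numbers, for each library. Cutadapt, STAR 2.5.4b, featureCounts 1.6.3 of Subread and the build GRCz10 are named in the submitters' processing notes, without settings, so strand and shared reads are not stated. Genotypes and ages came from the labels' titles. Counts were tested with edgeR 4.0.16 in R 4.3.3 (filterByExpr with a minimum count of 10, TMM, quasi-likelihood F test at defaults, Benjamini-Hochberg adjustment), 3 libraries against 3 in each comparison. The interaction of genotype and age was tested with 18 libraries. The SE is the absolute log2 fold change over the square root of F. CPM values use TMM factors over all libraries. Libraries of 1 group differed beyond counting noise (chi-square over degrees of freedom 4.73 to 16.9), so none was taken as a library deposited again; this does not show that they came from separate fish. The fits were tested on simulated data. Alternatives were RLE and upper-quartile factors, no filter, DESeq2 1.42.0, 1 fit over all libraries, the replicate block and each library left out. Named are members called in a genotype comparison or the interaction, the 10 largest changes called in each age step, the highest member per kilobase in each paralog group, and up to 4 called genes of each other list. The members and lists were chosen with earlier results of these data known. The list entries cdx1a, lhx3 and slc12a1 did not match the table. Depth limits low genes such as hoxb1a and hoxa1a.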

Additional observations from a re-analysis of the deposited data

Results flagged for a closer look

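In 13 of 48 Hox genes the difference between MZ and het fish changed between 5, 15 and 30 dpf. This was by edgeR's interaction test over the 18 libraries, adjusted over all genes tested. It called 33.3% of all genes, so the share of Hox genes called was below that of all genes. In the anterior gene hoxb3a the adjusted p was 0.00429. In the central genes hoxc5a and hoxb8a it was 0.0366 and 0.0281. Among the posterior genes it was 0.0369 for hoxc9a, 0.00831 for hoxd10a, 0.0112 for hoxa11b, 0.00662 for hoxc11a, 0.0161 for hoxc11b and 0.0457 for hoxd11a. In paralog group 13 it was 0.00124 for hoxa13b, 0.000603 for hoxb13a, 0.0456 for hoxc13a and 0.0291 for hoxc13b. The call was kept in all 18 fits that left out a library by 6 of the 13, namely hoxb3a, hoxd10a, hoxa11b, hoxc11a, hoxa13b and hoxb13a. It was kept in 17 of the 18 by hoxc11b, in 14 by hoxb8a, in 13 by hoxc13b, in 12 by hoxc5a, in 11 by hoxc9a, in 6 by hoxd11a and in 5 by hoxc13a. hoxc9a, hoxd11a and hoxc13a also lost it with upper-quartile factors, without the filter on low counts and with the replicate block, and hoxc5a with upper-quartile factors.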

How the results depend on the processing

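At 5 dpf the number of Hox genes called ran from 11 to 19 when single libraries were left out, and the 6 other fits gave 15 to 18. The fits with 11 and 19 calls called 6005 and 7937 of all genes, beside 8043 in the main fit. In none of the alternative fits was an anterior gene called lower. With the replicate block, without MZ replicate 1 and without het replicate 3, 1 central gene was called lower. The class medians stayed between 0.20 and 0.33 (anterior), 0.04 and 0.35 (central) and -0.41 and -0.30 (posterior). Of the 18 genes called, 10 kept the call without each library in turn and 14 under each of the 6 other fits, and none changed sign. One fit over all libraries gave 7 higher and 8 lower, beside 3248 higher and 4517 lower over all genes. It also called 3 Hox genes at 30 dpf, where it called 1770 of all genes, beside 657 in the main fit. In the step from 15 to 30 dpf in MZ fish it called 5 Hox genes. There it called 5768 of all genes, beside 3770 in the main fit. DESeq2 called 7 in the step from 5 to 15 dpf in het fish, where it called 6818 of all genes, beside 7793 in the main fit. Without single libraries the Hox counts ran from 4 to 14 in that step and from 2 to 6 in the het step to 30 dpf. Over all genes those fits called 6284 to 7307 and 2772 to 3729. In the same steps of MZ fish the Hox counts ran from 15 to 17 and from 0 to 2, beside 9793 to 11536 and 2434 to 3372 of all genes. For the interaction the Hox counts ran from 8 to 14, beside 5705 to 7514 of all genes. Between genotypes they were 0 at 15 and 30 dpf. Over all genes, the latter fits called 2 to 923 at 15 dpf and 1 to 1118 at 30 dpf. Where so few of all genes were called, a count of 0 Hox genes carries little weight. The causes of the shifts between fits were not tested. Same-numbered libraries correlated in their deviations by -0.13 to 0.15. With 3 libraries in a group, such values cannot decide whether the numbers mark a pairing. With the replicate block 18 genes were called at 5 dpf (9 higher, 9 lower), 0 at 15 dpf and 0 at 30 dpf. It gave 10 and 21 from 5 to 15 dpf in het and MZ fish, 7 and 1 from 15 to 30 dpf, and 11 for the interaction.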
